A study of Mus musculus with 2 samples.

Results

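The Ms4a genes of myeloid cells were examined in macrophages taken from the peritoneal cavity of mice without MeXis and of wild-type (WT) mice. The members were Ms4a4b, Ms4a4c, Ms4a4d, Ms4a6b, Ms4a6c, Ms4a6d, Ms4a7 and Ms4a8a, found as the non-control probes whose gene name in the scanner files is one of these names. The rule gave 8 genes of 37074 gene names, read by 11 probes of 56605. Ms4a7, Ms4a8a and Ms4a4b had 2 probes each and the other members 1, and each probe was printed as 1 spot.

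The MeXis null group was 1 pool of RNA from 3 samples of MeXis null peritoneal macrophages, and the WT group was 1 pool of RNA from 3 samples of WT peritoneal macrophages, both of the strain given as bl6. MeXis is a long noncoding RNA gene of chromosome 4, and the study concerns its part in the export of cholesterol from macrophages. Both groups had been kept in culture medium with serum, and the labels give no age, sex or treatment. Each pool was hybridised to 1 one-colour Agilent array, so no difference has a replicate check, none was tested, and every difference is between these 2 arrays only. The way the MeXis gene was disrupted is not given in the sources used here.

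Ms4a genes encode small proteins that cross the membrane 4 times and lie side by side in 1 gene cluster, which is on chromosome 19 in the mouse. The best known relatives are Ms4a1, the B cell antigen CD20, and Ms4a2, the beta chain of the mast cell IgE receptor, and several others are made by monocytes, macrophages and T cells. MS4A proteins act mainly beside other receptors, whose signalling or movement in the membrane they alter, as human MS4A4A does with the fungal receptor dectin-1 in macrophages.

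Each probe is a 60-base oligonucleotide, and the letters of those that carry the values below show what the signals rest on. Coordinates are mm9, as in the scanner files. The first 3 stretches belong to the probes with the greatest differences, and capitals mark AATAAA, the usual polyadenylation signal, which 9.77% of all 56605 oligonucleotides hold on the strand printed. Of these probes 30 bases are shown.
Ms4a7 probe 1, bases 31 to 60 (chr19:11395903-11395962, minus strand): tcagctttggtagatcctAATAAAcatctg
Ms4a7 probe 2, bases 1 to 30 (chr19:11396004-11396063, minus strand): ttcttgcctcaatcacaagatcatacccaa
Ms4a6d, bases 10 to 39 (chr19:11661601-11661660, minus strand): gaactcaaagAATAAAtccagtgtatcttc
The probes of Ms4a8a lay 11801 bases apart, and that of Ms4a6c is shown because its value depended most on the processing.
Ms4a8a probe 1 (chr19:11142131-11142190, minus strand): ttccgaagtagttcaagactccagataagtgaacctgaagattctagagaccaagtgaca
Ms4a8a probe 2 (chr19:11153932-11153991, minus strand): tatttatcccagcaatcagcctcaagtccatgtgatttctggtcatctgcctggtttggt
Ms4a6c (chr19:11545580-11545639, plus strand): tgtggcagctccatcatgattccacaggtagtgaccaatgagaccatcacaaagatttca
The probe of Ms4a4c holds a run of alternating T and G of 28 bases, marked in capitals.
Ms4a4c, bases 9 to 38 (chr19:11500839-11500898, plus strand): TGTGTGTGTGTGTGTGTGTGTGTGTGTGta
A run of at least 20 such bases was found in 46 of the 56605 oligonucleotides (0.0813%), so the signal of the Ms4a4c probe may not be that of Ms4a4c alone, which was not tested. No 2 member probes shared a run of more than 8 identical bases in 55 pairs, and no probe of another name had the same oligonucleotide as a member.

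Signals are given as processed signal, the brightness of a spot in linear units after the scanner software's processing, with the error that the software attaches. This processing is more than background subtraction, since some processed signals lie above the mean pixel brightness of their spots. Each difference is the log2 level on MeXis null minus that on WT, after each array was scaled to the 75th percentile of probes well above background on both arrays. These percentiles were 3723 on MeXis null and 3535 on WT, so the scaling lowered MeXis null by 0.07 on the log2 scale. The scanner software marked 26257 of 59305 non-control spots (44.3%) as well above background on MeXis null and 28463 (48.0%) on WT. The spread between spots of 1 probe came from 285 probes printed at least 5 times, of which 274 had a signal of 1000 or more. Their differences had a median SD of 0.47, and 1.96 times this SD, a difference of 0.91 or 1.88-fold, is taken as the limit of that spread. A local surface correction, in which the median difference of the 100 nearest spots well above background is taken off, lowered that SD to 0.33 and the limit to 0.64. The 1 probe of MeXis read 8.44 on MeXis null and 12.3 on WT and was well above background on neither, so it could not check the labels. Of 16 macrophage marker genes 15 were well above background on both arrays, among them Adgre1, Csf1r, Itgam and Cd68.

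Ms4a7, a macrophage gene that is used as a marker of macrophages at the borders of the brain, was higher in MeXis null by both of its probes. Probe 1 read 6935 ± 694 on MeXis null and 1342 ± 134 on WT (scanner error, 1 spot each). Probe 2, which lies 101 bases upstream of it in the transcript, read 3459 ± 346 on MeXis null and 759 ± 76.1 on WT. MeXis null was thus the brighter array by both probes, and the scanner errors of the arrays did not overlap. The scaled differences were 2.29 (4.91-fold) for probe 1 and 2.11 (4.33-fold) for probe 2, each with a scanner error of 0.20. The gap of 0.18 between the probes was smaller than the median SD of 0.47 between spots of 1 probe. Before background subtraction the mean pixel brightness of probe 1 was 6041 on MeXis null and 1082 on WT, and that of probe 2 was 2926 on MeXis null and 606 on WT, with local backgrounds between 20 and 23. The difference was therefore present in the unprocessed spots.

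Among all 22733 probes well above background on both arrays, probe 1 of Ms4a7 had the 38th highest difference and probe 2 the 57th. Of 5194 gene names with 2 or more such probes, 45 had every probe at least 2-fold higher in MeXis null (0.866%), and Ms4a7 was one of them. Over all 5194 gene names the highest and the lowest probe lay a median of 0.69 apart. The surroundings of the spots differed. Around probe 1, 21 of the 100 nearest spots were at least 2-fold higher and 1 was as high as the probe itself, with a local median of 0.42. Around probe 2, 1 of the 100 nearest spots was at least 2-fold higher and 0 were as high, with a local median of -0.13. After local surface correction Ms4a7 was at 1.88 (3.68-fold) by probe 1 and 2.24 (4.74-fold) by probe 2.

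Ms4a6d, which in mouse macrophages has been described as a partner of the complement receptor Vsig4, was also higher in MeXis null. Its probe read 4373 ± 437 on MeXis null and 1054 ± 105 on WT (scanner error, 1 spot each). The scaled difference was 1.98 (3.94-fold) with a scanner error of 0.20, the 98th highest of the 22733 probes. Mean pixel brightness was 3887 on MeXis null and 1247 on WT. Of its 100 nearest spots 19 were at least 2-fold higher and 1 as high as the probe, with a local median of 0.49, and after local surface correction Ms4a6d was at 1.49 (2.80-fold). With either value it lay outside the limit of the spread between spots.

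**Figure D1:**
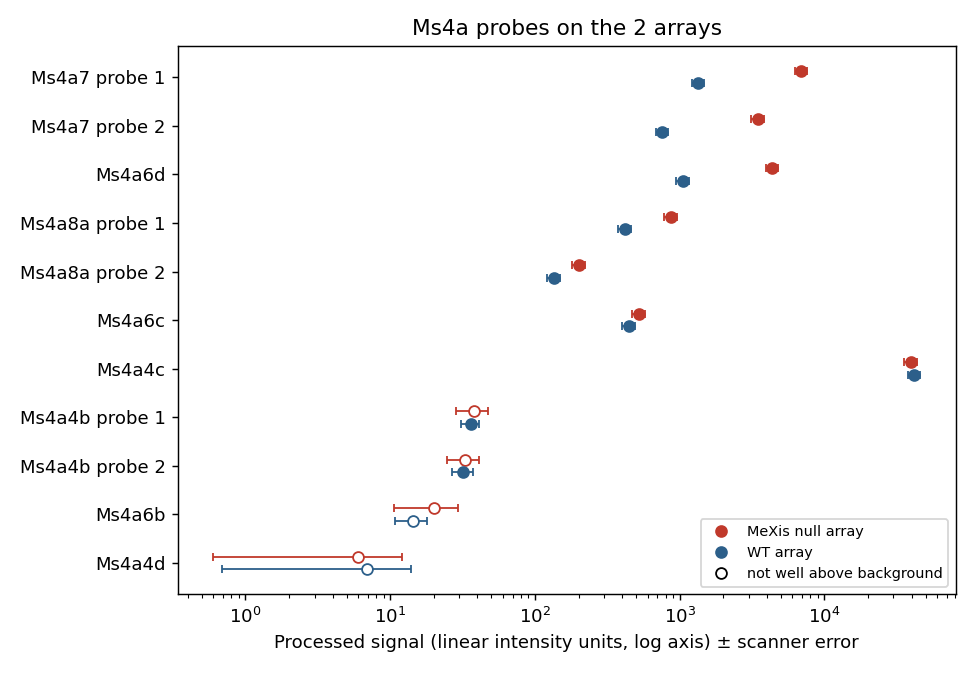
Processed signal of the 11 member probes on a log axis, with MeXis null in red above WT in blue for each probe, and bars of 1 scanner error (the lower bars of Ms4a4d are shortened to stay on the axis). Filled points are well above background and open points are not. Both Ms4a7 probes and the Ms4a6d probe were brighter on MeXis null by more than their errors, while the points of Ms4a4c and Ms4a4b lay close together.

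Ms4a8a, found on alternatively activated macrophages in the mouse, was higher in MeXis null by a smaller amount, and its probes did not give the same size. Probe 1 read 869.9 ± 87.4 on MeXis null and 416 ± 41.8 on WT. Probe 2 read 202 ± 21.4 on MeXis null and 135 ± 14.2 on WT. MeXis null was the brighter array by each. The scaled differences were 0.99 (1.98-fold) for probe 1 and 0.51 (1.42-fold) for probe 2, and both exceeded 1.96 times the scanner error, while against the limit of 0.91 for the spread between spots probe 1 was just outside and probe 2 inside. Probe 1 lay just under the 2-fold threshold used below. In the mean pixel brightness the arrays were closer for probe 1, with 800 on MeXis null and 548 on WT. For probe 2 they were not, with 246 on MeXis null and 155 on WT. With normexp, a background correction that starts from these pixel values without the software's other steps, the difference of probe 1 was 0.45. That of probe 2 was then 0.47. None (0) of the 100 spots around probe 1 was at least 2-fold higher, the local median was -0.35, and after local surface correction it was at 1.34 (2.53-fold), against 0.53 for probe 2.

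Ms4a6c and Ms4a4c, genes of monocytes and macrophages, differed by less than the scanner limit. The Ms4a6c probe read 523 ± 53.1 on MeXis null and 447 ± 44.9 on WT, a scaled difference of 0.15 with a scanner error of 0.21. The Ms4a4c probe, with the repeat shown above, read 39363 ± 3936 on MeXis null and 41709 ± 4171 on WT, a scaled difference of -0.16 with a scanner error of 0.20. The intervals of 1.96 scanner errors reached from -0.25 to 0.55 for Ms4a6c and from -0.56 to 0.24 for Ms4a4c. In mean pixel brightness the order of the arrays was the opposite for each. Ms4a6c was at 436 on MeXis null and 459 on WT, and Ms4a4c at 44507 on MeXis null and 41203 on WT. Both scaled differences also moved with the place of the spot on the array. The Ms4a6c spot lay among spots with a median difference of -0.78 and 5 of its 100 neighbours were as high, and after local surface correction it was at 0.93 (1.91-fold). The Ms4a4c spot lay among spots with a median of 0.63 and was then at -0.79 (1.73-fold lower). These corrected values lie outside the limit of 0.64 after correction, so whether Ms4a6c and Ms4a4c differed was not settled by these arrays.

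Ms4a4b, Ms4a6b and Ms4a4d were dim. Ms4a4b, a gene of T cells that alters their response to antigen, read 38.0 ± 9.46 on MeXis null and 36.0 ± 5.0 on WT by probe 1, and 32.7 ± 8.18 on MeXis null and 32.0 ± 5.39 on WT by probe 2. Both probes were well above background on WT only, although their signals were nearly equal on the arrays, and their errors were larger on MeXis null. The scaled differences were 0.00 and -0.04, and after local surface correction -0.74 and -0.88, with 36 and 44 of their 100 nearest spots at least 2-fold higher. Ms4a6b, which with Ms4a4b has been linked to the costimulatory receptor GITR on T cells, read 20.1 ± 9.5 on MeXis null and 14.3 ± 3.55 on WT. Ms4a4d read 6.0 ± 6.02 on MeXis null and 6.89 ± 6.91 on WT, errors as large as the signals. Ms4a6b and Ms4a4d were at background on both arrays, and no fold is given for them. Of 18 T and NK cell marker genes 8 were well above background on both arrays with a median of -0.42. They ranged from -1.27 for Cd2 and -0.95 for Cd8b1 to 0.60 for Prf1. Of the 8, 1 was at least 2-fold lower, against 4.55% of 15482 gene names read by their brightest probe. After local surface correction the median was -0.12 and 2 were at least 2-fold lower. In these pools fewer cells of a type and less RNA per cell cannot be told apart, here or for any gene below.

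Counted together, 7 of the 11 member probes, from 5 of the 8 genes, were well above background on both arrays. Of these 7, 3 were at least 2-fold higher in MeXis null, against 1827 of all 22733 probes (8.04%), and 0 were at least 2-fold lower, against 1029 of 22733 (4.53%). The 3 were the probes of Ms4a7 and Ms4a6d, that is 2 genes. The median difference of the 7 probes was 0.99, against 0.07 for all probes, and it equals the value of Ms4a8a probe 1, so it rests on few genes. With the local surface correction 4 of the 7 were at least 2-fold higher, Ms4a8a probe 1 being the fourth, against 3.66% of all probes. The split of all probes into 1827 higher and 1029 lower depended on the scaling: it was 1410 higher and 1287 lower with loess scaling on level, and 831 higher and 749 lower after local surface correction.

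**Figure D2:**
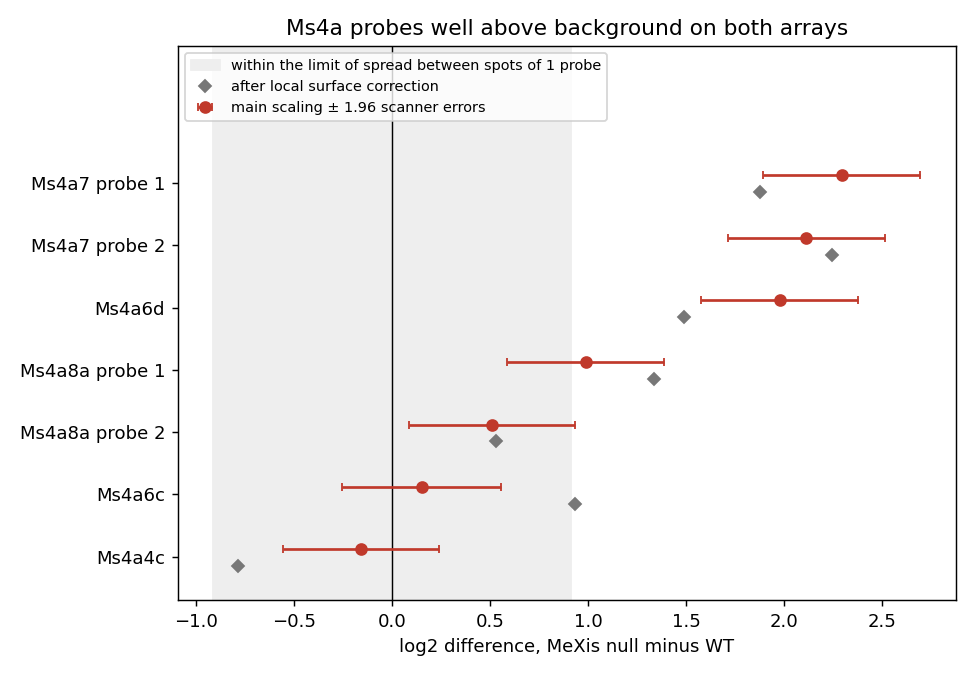
Log2 difference of MeXis null minus WT for the 7 member probes well above background on both arrays, with bars of 1.96 scanner errors (red) and the value after local surface correction (grey diamonds). The grey band is the limit of 0.91 for the spread between spots of 1 probe. Both values of each Ms4a7 probe and of Ms4a6d lie to the right of the band.

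**Figure D3:**
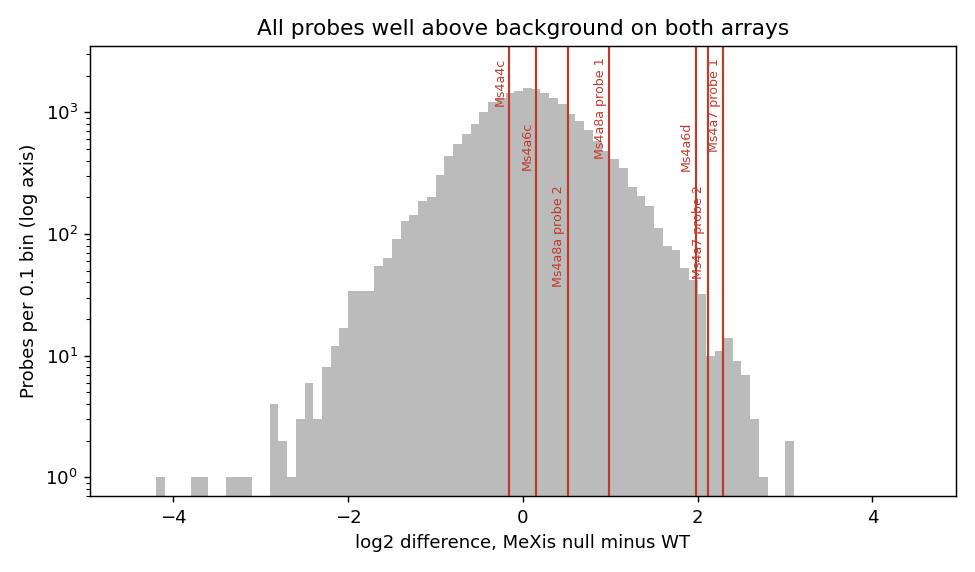
Histogram of the log2 difference of MeXis null minus WT for all 22733 probes well above background on both arrays (number of probes per bin on a log axis), with red lines at the 7 member probes, each label standing left of its line. Ms4a7 at 2.29 and 2.11 and Ms4a6d at 1.98 lie in the upper tail, and Ms4a6c and Ms4a4c near the middle.

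The members are spread through 1 cluster, and along it the higher genes did not form an unbroken block by the main values. Between the outermost Ms4a probes (chromosome 19, 11036787 to 11704114, mm9) the arrays hold 37 probes of 27 gene names. Ms4a8a lies in the first part of this stretch, Ms4a7 in the middle and Ms4a6d close to the far end, and Ms4a4c, Ms4a4b and Ms4a6c, none of them 2-fold apart, lie between Ms4a7 and Ms4a6d. After local surface correction Ms4a6c was at 0.93 and Ms4a4c at -0.79, so their place in this order is not settled. Of the 26 probes of other genes 18 were well above background on neither array. The unnamed transcript ENSMUST00000087884, next to Ms4a6d, read 280 on MeXis null and 111 on WT, a difference of 1.26 (2.39-fold). The unnamed transcript ENSMUST00000189380, between Ms4a4c and Ms4a4b, read 276 on MeXis null and 158 on WT, a difference of 0.73. Gm17821, beside Ms4a14, differed by -0.28, and AW112010, a gene induced in inflamed immune cells, by 0.28. AW112010 was at 1.17 after local surface correction.

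**Figure D4:**
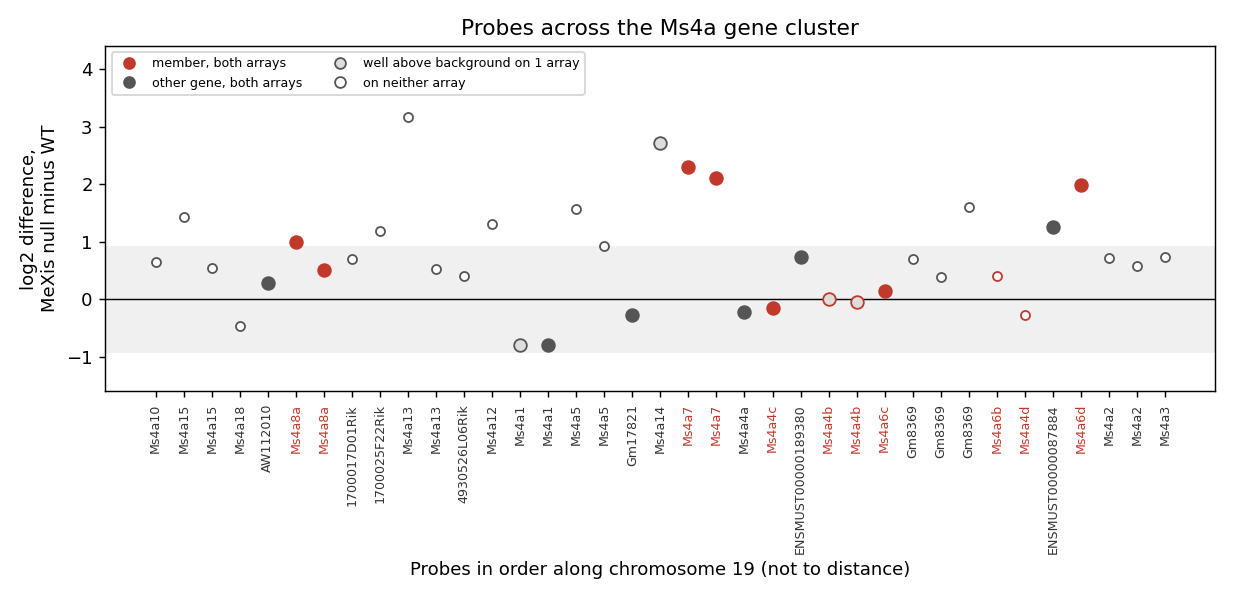
Log2 difference of MeXis null minus WT for the 37 probes between the outermost Ms4a probes, in their order along chromosome 19 but not to distance. Members are red, filled points are well above background on both arrays, grey-filled points on 1 array, and open points on neither, for which the height has no meaning; the band is the limit of 0.91. The filled red points of Ms4a7 and Ms4a6d stand above the band with Ms4a4c and Ms4a6c inside it between them.

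The other Ms4a genes and their relatives Tmem176a and Tmem176b, which encode similar 4-pass membrane proteins, were mostly at background. Of 14 listed genes 13 had a probe, 4 were well above background with both pools, 1 with the MeXis null pool only and 8 with neither. Of the 4, 1 was higher and 0 were lower by 2-fold or more, against 7.68% and 4.55% of 15482 gene names read by their brightest probe, with a median of 0.12. The higher one was Tmem176a, whose probe read 236 on MeXis null and 84.3 on WT, a difference of 1.41 (2.66-fold). The brighter probe of Tmem176b read 2113 on MeXis null and 1462 on WT (a difference of 0.46), and the dimmer one 358 on MeXis null and 124 on WT (a difference of 1.45), so its probes gave different sizes in 1 direction. Ms4a1 read 177 on MeXis null and 291 on WT, a difference of -0.79 that lay inside the limit of 0.91. After local surface correction it was at -1.07, outside the limit of 0.64 after correction. Its other probe, well above background on WT only, read 14.2 on MeXis null and 23.2 on WT. Ms4a4a read 41.2 on MeXis null and 45.7 on WT, a difference of -0.22 with a scanner error of 0.36, and 0.27 after local surface correction, so it had no settled direction. It lies between Ms4a7 and Ms4a4c.

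Ms4a14 lies directly beside Ms4a7 and was well above background on MeXis null only. It read 93.7 on MeXis null and 13.6 on WT. That WT signal was above the lowest signal called well above background, so its at-least fold is the measured fold itself. With this scaling the difference was 2.71 (6.52-fold) with a scanner error of 0.54, and it is not a lower limit. An at-least fold of 2 or more was reached by 610 of the 709 probes well above background on MeXis null only (86%). Reaching it is therefore common among such probes. After local surface correction the difference of Ms4a14 was 2.22. Ms4a2 and Ms4a3, genes of mast cells and of granulocyte precursors, were well above background on neither array, as were Ms4a5, Ms4a10, Ms4a12, Ms4a13, Ms4a15 and Ms4a18. The genes listed as 1700017D01Rik and 1700025F22Rik in the scanner files, now named Ms4a20 and Ms4a19, were also on neither.

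Genes that lie farther out on either side were used as a further setting for the cluster. Well above background on both arrays were 16 such genes of chromosome 19, with a median of -0.04. By 2-fold or more 2 of the 16 were higher and 0 lower, against 7.68% and 4.55% of 15482 gene names. The 2 were Tmem132a, at 2.31 or 1.74 after local surface correction, and the mitochondrial ribosomal protein gene Mrpl16, at 1.06 or 0.62 after local surface correction. Mpeg1 was at -0.65 by its brightest probe, which the counts use, but at -1.59 by its other probe. Read by brightest probe, Cd6, a surface receptor of T cells (-0.85), and the peptide transporter Slc15a3 (-0.76) were the lowest of the 16. After local surface correction they were at -1.29 and -0.75, so that Cd6 was then more than 2-fold lower. Ddb1 (-0.86) and Dtx4 (-0.76) were then lower than Slc15a3. Cd5, another T cell surface receptor, was well above background on WT only. It was at -1.42 (2.67-fold lower) with a scanner error of 0.37. Its MeXis null signal was above the lowest signal called well above background there, so this is not a lower limit. After local surface correction it was at -0.88, less than 2-fold.

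Receptors and adaptors that have been reported beside MS4A proteins did not share the size of the differences of Ms4a7 and Ms4a6d. Of 11 with a probe in use 8 were well above background on both arrays, with a median of 0.21. By 2-fold or more 0 of the 8 were higher and 1 was lower, against 7.68% and 4.55% of 15482 gene names. Vsig4, the partner described for Ms4a6d, read 93.1 on MeXis null and 45.6 on WT, a difference of 0.96 (0.68 after local surface correction). Fcer1g, the signalling chain of Fc receptors, differed by 0.54. The kinase Syk, which acts below such receptors, read 7363 on MeXis null and 17634 on WT by its brightest probe, 2.52-fold lower. Its 4 probes did not give 1 direction, with differences from -1.33 to 0.37. Those of Card9, an adaptor that acts below Syk, lay at -0.55 for the brighter probe and 0.83 for the other. Clec7a, the gene of dectin-1, at 0.29, and Trem2, a lipid receptor whose shed form has been tied to MS4A genes in humans, at 0.12, were named here after their values were seen. Nlrp3, Cd209a and Fcer1a were well above background on neither array.

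Markers of macrophages and of other cells differed beside the Ms4a genes, and their part in these differences was not tested. Over all 15482 gene names read by their brightest probe, 7.68% were at least 2-fold higher and 4.55% lower. After local surface correction both directions were counted by probe only, with 831 of 22733 (3.66%) higher and 749 lower. Of 15 macrophage genes on both arrays 2 were higher and 2 lower by 2-fold or more, with a median of 0.37. The local surface correction left 0 of them higher and 2 lower, and the median at 0.06. Lyz2 (1.25) and the complement gene C1qa (1.04) were the highest and Mertk (-1.95) the lowest. The probes of Lyz2 differed in size, from 0.22 to 1.25. Large peritoneal macrophage genes had a median of 0.57 over 7 genes, with 1 at least 2-fold higher and 0 lower, and after local surface correction 0.43 with 0 higher. Monocyte genes had a median of -0.20 over 7 genes, with 0 higher and 1 lower. B cell genes, the list that holds Ms4a1, had a median of -0.90 over 7 genes, 3 of them at least 2-fold lower and 0 higher, and after local surface correction 5 were lower with a median of -1.11. Fibroblast genes had a median of 1.08 over 9 genes with 5 higher and 0 lower, and mesothelial genes 0.99 over 8 genes with 4 higher and 0 lower. After local surface correction the medians were 0.62 and 0.71, with 3 genes higher in each list. The tenth fibroblast gene, Lum, read 40.3 on MeXis null and 131 on WT, above background on the WT array alone. Its difference was -1.77 (3.41-fold lower) with a scanner error of 0.38. The summed level of the fibroblast list, in units of the 75th percentile signal, was 3.69 on MeXis null and 2.19 on WT, and that of the mesothelial list 0.64 on MeXis null and 0.28 on WT. Dendritic cell genes had a median of 0.44 over 3 genes, 1 of them at least 2-fold lower (0 after local surface correction), and neutrophil genes -0.45 over 5. Only 2 mast cell genes and 1 eosinophil gene were well above background on both arrays, with medians of -0.01 and -0.73. Among genes of these lists well above background on WT only, Ear2 of the eosinophil list read 34.3 on MeXis null and 1475 on WT. With this scaling Ear2 was 45.3-fold lower (-5.50, scanner error 0.40) and Ear1 13.8-fold lower (-3.79, scanner error 0.39). Their MeXis null signals were above the lowest signal called well above background on that array, so these folds are not lower limits. After local surface correction Ear2 and Ear1 were at -4.95 and -3.69. Il5ra, also on WT only, read 21.2 on MeXis null and 24.3 on WT, and 3 eosinophil genes were on neither array. The mast cell protease genes Cma1 and Cpa3 were at least 2.34-fold and 1.43-fold lower. Of the other mast cell genes 5 were on neither array, and Tpsb2 (0.29) and Hdc (-0.31) on both. How many of all probes on WT only reached such bounds was not counted.

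**Figure D5:**
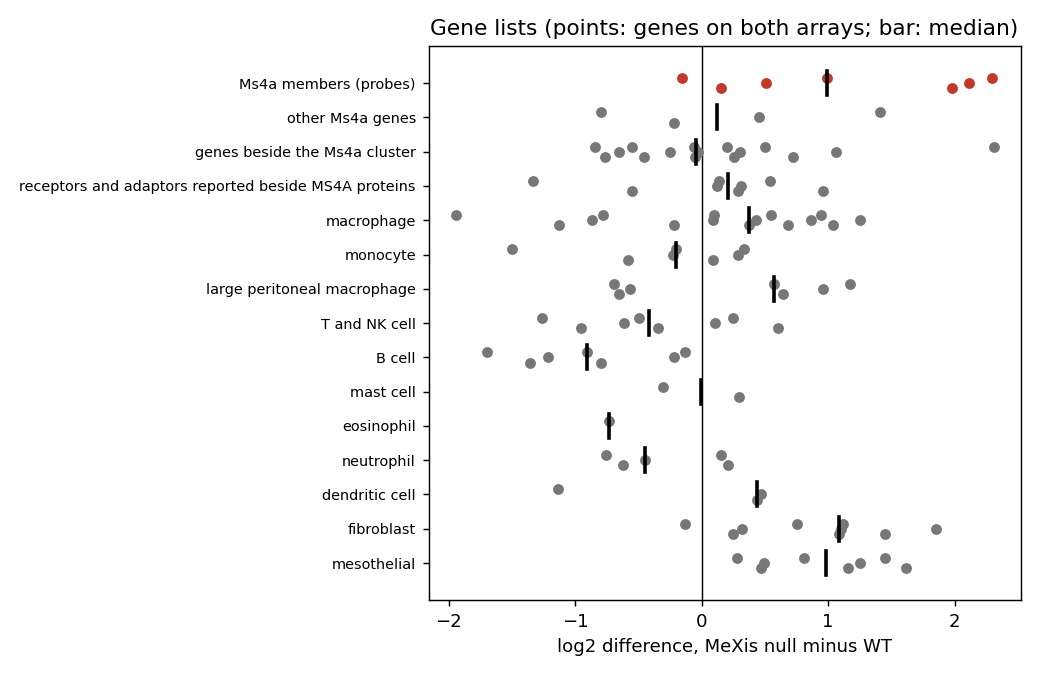
Log2 difference of MeXis null minus WT for the 7 member probes (top row, red) and for the genes of each list well above background on both arrays (grey, 1 probe per gene), with a bar at the median. The member probes reach 2.29 with a median of 0.99, fibroblast and mesothelial genes have medians of 1.08 and 0.99, and B cell genes have a median of -0.90.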

How the data were processed

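Total RNA labelled with Cy3 was read on 2 one-colour Agilent arrays. Per the file headers, the deposited intensity of each spot came from the scanner software Agilent Feature Extraction, version 11.5.1.1. The authors' value table repeats these intensities unchanged, feature by feature, for 62976 features an array. Both arrays were on 1 slide, scanned together.

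Computed here with Python 3.11.15: control spots and spots marked as outliers (205 on MeXis null, 305 on WT) were left out, none of them a member spot, and no spot was saturated. Values were log2 of the deposited signals minus the 75th percentile of the probes bright on both arrays. A gene in a list was read by its probe with the highest mean level. For a probe bright on 1 array only, the fold was taken against the dim signal or the lowest signal well above background, whichever was higher. It is an at-least fold only where the latter was used. Steps were tested on simulated data. Alternatives were normexp with an offset of 50 (limma 3.58.1), quantile, loess and other scalings, a local surface correction, filters and thresholds.

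The members and lists were chosen with earlier results of these data known. All members and other Ms4a genes were to be named, and at most the 2 highest and 2 lowest genes of other lists. Tcn2 was dropped from the list of genes near the cluster because it is not on chromosome 19.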

Additional observations from a re-analysis of the deposited data

How the results depend on the processing

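The number of member probes at least 2-fold lower was 0 under every alternative run with 1 choice changed at a time. The number at least 2-fold higher, 3 of 7, was 2 of 5 with 1 probe per gene and 4 of 7 with the local surface correction. In the other alternatives at the 2-fold threshold it was 3. At a 1.5-fold threshold 4 of 7 were higher. The median difference of 0.99 was 0.47 with normexp, 0.41 with all 11 probes counted whatever their brightness, and 1.48 without the Ms4a4c probe, the last chosen after seeing the data. In the other alternatives it lay between 0.91 and 1.34, the highest with the local surface correction. Over all scalings and corrections Ms4a7 stayed between 1.88 and 2.37 by probe 1 and between 2.04 and 2.24 by probe 2, and Ms4a6d between 1.49 and 1.98. Ms4a8a probe 1 lay between 0.45 and 1.34, Ms4a6c between -0.14 and 0.93 and Ms4a4c between -0.79 and 0.04. Of 88 values of single probes under alternatives 10 moved by more than 0.47, and the cause was not tested. The 88 include values that could not move so far, so this share does not measure stability. The authors' value table repeats the deposited signals. Median scaling and the 75th percentile of all probes shift every probe by 1 constant, -0.06 and -0.08. Keeping outlier spots altered member values through the scaling only. No paired analysis was possible because each group has 1 array. With 1 pool and 1 spot per probe, spread between mice was not measured, and dim probes had scanner errors that allow no statement.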
